A study of Rattus norvegicus with 38 samples.

Results

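Rats of the high capacity runner line (HCR) were exposed to cigarette smoke, and their lung expression was set against that of HCR rats that breathed room air. The HCR line is one of a pair of N:NIH stock lines bred for intrinsic running capacity, the other being the low capacity runners (LCR). All animals were female, age matched and 34 weeks old, and smoke or room air (sham) was given on 5 days per week, with lungs taken after 12 weeks. The comparison holds 19 of the 38 arrays of the series, 12 from HCR smoke and 7 from HCR sham animals, and the other 19 come from 12 LCR smoke and 7 LCR sham animals under the same schedules. Members were the arrays labelled as high capacity runners, and each array carried total RNA from a small piece of lung of a single animal on an Affymetrix Rat Genome 230 2.0 array. The smoke dose, the time of day of sampling and the part of the lung taken are not given in the sources used here.

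Cigarette smoke carries polycyclic hydrocarbons, oxidants, aldehydes and metals. Polycyclic hydrocarbons bind the aryl hydrocarbon receptor, which pairs with Arnt and switches on cytochrome P450 genes of the first family. Oxidants and electrophiles release the transcription factor NRF2 from Keap1, and NRF2 then drives glutathione and thioredoxin enzymes. In the lungs of smoking animals, epithelial cells and macrophages are also known to release chemokines that draw in neutrophils and monocytes.

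The deposited values are linear array intensities, and changes are differences of log2(intensity + 16) with the standard error (SE) of the fit, a scale that understates changes of dim genes. A gene was said to rise or fall where limma's adjusted p was under 0.05. Over all 14217 genes, 6830 passed (48.0%), 2513 of them higher (17.7%) and 4317 lower (30.4%) after smoke. The median change was -0.027 and 93.4% of the calls were under 1.5-fold, so every count below is to be read against these shares. Changes of at least 1.5-fold were called upward in 225 genes (1.58%) and downward in 228 (1.60%), and those of at least 2-fold in 70 (0.492%) and 24 (0.169%). All 12 smoke arrays lay above all 7 sham arrays for 225 genes (1.58%) and below them for 609 (4.28%). With median-centred arrays 3806 genes were higher and 3359 lower, so that higher genes made up 53.1% of the calls in place of 36.8%.

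The spread and the median of the arrays moved with smoke. The interquartile range of log2 values was 2.859 ± 0.0575 (SD, n = 12) on smoke and 2.993 ± 0.0387 (SD, n = 7) on sham arrays (exact permutation test, two-sided, adjusted p = 0.000159), and the difference of the array medians, smoke minus sham, was -0.0441 (adjusted p = 0.00349, exact permutation test). With this spread of each array as a further term in the fit, called spread-adjusted below, 3023 genes passed, 1412 higher (9.93%) and 1611 lower (11.3%), and 2632 of them were called in the same direction as without it. A term that differs between the groups can also take up part of the smoke change, and its part in the results was not tested. The lung markers Sftpc and Scgb1a1 and the red cell gene Hbb were high on every array. Sftpc was at 9999.5 to 10732 (median 10446) on sham and 10246 to 10886 (median 10508) on smoke arrays. The Actb 3' minus 5' difference, which grows with RNA breakdown, ranged from 0.626 to 2.06 on sham and from 0.596 to 0.863 on smoke arrays (exact permutation test, adjusted p = 0.0428). A few arrays held high markers of other tissues: heart muscle genes on HCR smoke 0415, 0410, 0414 and 0417 and HCR sham 0433, and skeletal muscle and fat genes on HCR sham 0433, with their values given below. A call is said to be lost where it did not pass in one or more of 32 alternative settings, 19 of which leave out 1 array each.

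Targets of the aryl hydrocarbon receptor gave the 2 largest rises by the naming rule, Cyp1a1 and Aldh3a1. Cyp1a1, the P450 enzyme that oxidises polycyclic hydrocarbons, was near the floor of the array on sham lungs, at intensities of 6.20 to 16.4 (median 6.98), and reached 2803 to 4881 (median 3612) on smoke lungs. It rose by 7.19 ± 0.14 log2 (adjusted p = 2.3e-31), and no smoke array came near the sham range. Aldh3a1, which oxidises aldehydes, was at 34.9 to 54.2 (median 41.7) on sham and 322 to 1861 (median 782) on smoke arrays, a rise of 3.82 ± 0.24. Cyp1b1, a P450 of the same family, was at 118 to 181 (median 130.1) on sham and 457 to 2132 (median 1124) on smoke arrays, a rise of 2.80 ± 0.25. Groups did not overlap in any of these 3 genes.

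The receptor's own repressor rose as well. Ahrr, which competes with the receptor for Arnt, was at 4.61 to 7.73 (median 6.84) on sham and 39.9 to 84.3 (median 57.5) on smoke arrays (1.70 ± 0.11, adjusted p = 6e-14), with the groups apart. Nqo1, a quinone reductase that both the receptor and NRF2 induce, rose by 2.34 ± 0.12, with 542 to 938 (median 620.0) on sham and 2384 to 4865 (median 3639) on smoke arrays. Of 8 measured targets, 6 rose, none fell and the median change was 2.02; the one not yet named is Cyp1a2, chosen after its value was seen. It changed by 0.16 ± 0.048, a call lost in the spread-adjusted fit (-0.011, adjusted p = 0.9). Tiparp, a poly-ADP-ribosyl transferase that acute receptor activation induces, gave -0.0008 ± 0.084 (adjusted p = 0.99), and its sham range of 331 to 484 (median 393) lay over the smoke range of 367 to 494 (median 399). The mean of the list was higher on each smoke array (1.77 to 2.62 above the sham mean) than on any sham array (-0.11 to 0.135).

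The receptor and Arnt bind DNA at a core of the letters GCGTG. To show where that core lies in genes that rose, the promoter stretches of Ahrr and Cyp1b1 follow, from RefSeq promoters of 250 bases before to 50 after the gene start on the rat build GRCr8, with each match on either strand in capitals. They run from 5′ to 3′, and both genes lie on the forward strand, Ahrr at chr1:30822065-30822178 and Cyp1b1 at chr6:21094472-21094561.
Ahrr: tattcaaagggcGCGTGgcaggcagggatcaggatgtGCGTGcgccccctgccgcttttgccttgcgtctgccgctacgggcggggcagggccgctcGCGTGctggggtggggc
Cyp1b1: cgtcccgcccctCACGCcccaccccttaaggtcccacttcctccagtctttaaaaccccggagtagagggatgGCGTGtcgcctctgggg
Ahrr held 3 matches and Cyp1b1 held 2, the first of them on the reverse strand. Of the 10945 measured genes with 1 such promoter, 46.2% held the core at least once, and of the 6 targets with a promoter 4 did, so a single match is common. A match is a description of the letters and not a measured binding site.

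**Figure D1:**
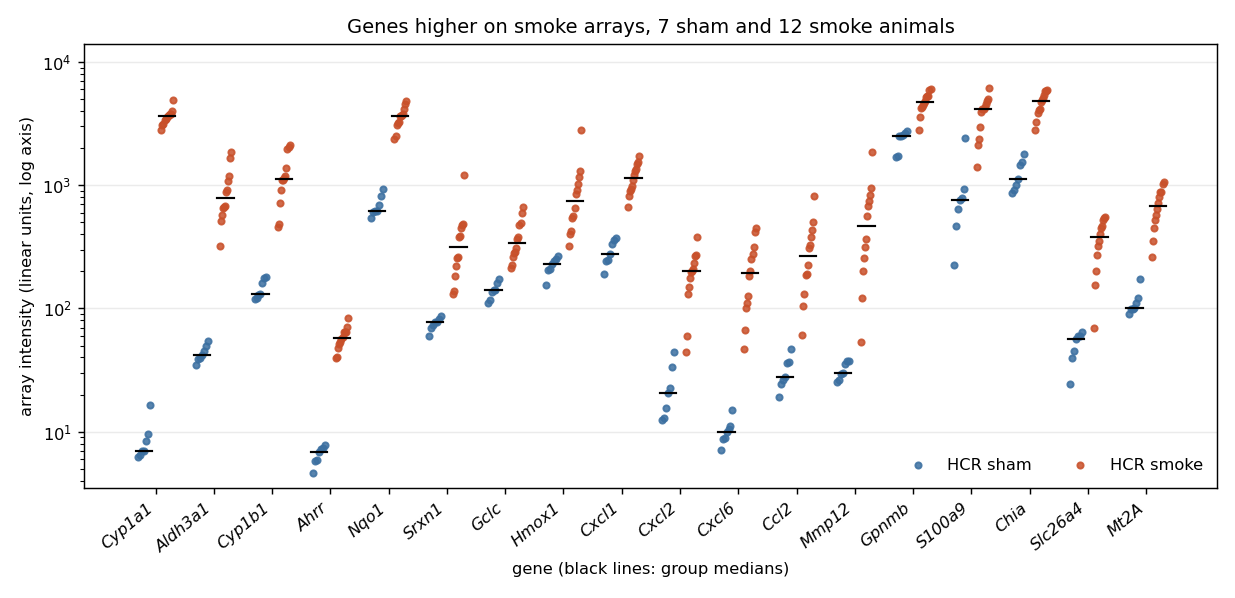
Array intensity (log axis) of 18 genes on each of 7 HCR sham (blue) and 12 HCR smoke (orange) arrays, 1 point per animal, with black lines at the group medians. Cyp1a1 runs from 6.20 to 16.4 on sham and from 2803 to 4881 on smoke arrays, while S100a9 and Cxcl2 overlap between the groups.

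NRF2 targets rose with a wide spread between smoke animals. Srxn1, the sulfiredoxin that repairs oxidised peroxiredoxins, was at 59.6 to 87.3 (median 77.5) on sham and 131 to 1221 (median 318) on smoke arrays (1.87 ± 0.27, adjusted p = 1.3e-06). Slc7a11, the cystine importer that feeds glutathione synthesis, was at 7.03 to 15.3 (median 10.5) on sham and 17.6 to 634 (median 137) on smoke arrays (2.36 ± 0.43). All smoke arrays lay above all sham arrays in both genes, and smoke animals differed widely among themselves in Slc7a11.

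The genes of both subunits of the first enzyme of glutathione synthesis rose. Gclc, the catalytic subunit, was at 111 to 174 (median 139.8) on sham and 214 to 669.9 (median 338) on smoke arrays and rose by 1.27 ± 0.17. Gclm, the modifier subunit, was at 196 to 248 (median 220.3) on sham and 245 to 1237 (median 644) on smoke arrays and rose by 1.43 ± 0.25. Txnrd1, the thioredoxin reductase, rose by 1.10 ± 0.14, and Hmox1, which breaks down haem, by 1.72 ± 0.28, with 154 to 268 (median 231) on sham and 324 to 2807 (median 749) on smoke arrays. Akr1b8, an aldo-keto reductase, rose by 2.24 ± 0.31; it was at 121 to 316 (median 271) on sham and 206 to 3196 (median 1429) on smoke arrays, with overlap. Of 23 measured targets 15 rose and none fell, with a median of 0.32, and 15 rose in the spread-adjusted fit. The list mean was above the sham mean by 0.104 on the lowest smoke array and by 1.3 on the highest, against -0.154 to 0.0832 on sham arrays. The 9-base motif that NRF2 binds was in 4 of 17 targets with a RefSeq promoter (23.5%). Of the 12 that rose 2 held it (16.7%), against 14.4% of the promoters of all 10945 measured genes.

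Glutathione S-transferases, which join glutathione to electrophiles, moved in both directions. Of 20 measured genes 5 rose (25.0%, against 17.7% of all genes) and 7 fell (35.0%, against 30.4%), with a median of -0.085. The alpha class genes Gsta3 (1.32 ± 0.32) and Gsta1 (0.88 ± 0.16), the pi class gene Gstp1 (0.44 ± 0.065) and the omega class gene Gsto1 (0.43 ± 0.093) rose. Of these 4, the groups of Gstp1 did not overlap, at 2143 to 2752 (median 2604) on sham and 2899 to 4165 (median 3393) on smoke arrays. The mu class gene Gstm7 (-0.64 ± 0.089), Gstk1 (-0.40 ± 0.058) and Gstt2 (-0.46 ± 0.079) fell, the call of Gstt2 ending in the spread-adjusted fit (adjusted p = 0.078, the highest over the alternatives). The 7 falls became 2 in that fit and 4 without HCR sham 0439. Members of this family share sequence, and a probe set may report more than 1 of them.

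Oxidases of the airway fell where they passed. Cyp4b1, an airway P450, fell by 0.60 ± 0.091, with 2012 to 2914 (median 2755) on sham and 1305 to 2122 (median 1695) on smoke arrays, and Fmo1, a flavin monooxygenase, fell by 0.57 ± 0.09, with 2454 to 3318 (median 2856) on sham and 1524 to 2632 (median 1939.9) on smoke arrays. Of 12 measured genes none rose and 5 fell (41.7%, against 30.4% of all genes), Aox1 (-0.41 ± 0.087) and Cyp2j4 (-0.36 ± 0.088) among them. The list mean lay below all sham arrays on 3 of 12 smoke arrays. Fmo2, another flavin monooxygenase, passed narrowly at -0.28 ± 0.12. Its call was lost in 18 alternatives, 12 of them leaving out 1 array (HCR sham 0432, 0434, 0435, 0436 or 0439, or HCR smoke 0408, 0412, 0413, 0415, 0416, 0417 or 0418), with adjusted p up to 0.11. Club cell P450 genes spread widely in both groups: Cyp2f4 was at 200.1 to 1344 (median 468) on sham and 83.4 to 1327 (median 498) on smoke arrays (0.016 ± 0.47, adjusted p = 0.98), and Cyp2a3 gave 0.71 ± 0.62 (adjusted p = 0.36). Among 15 other aldehyde and carbonyl enzymes 1 rose, Cbr3 (0.45 ± 0.11), and 5 fell (33.3%, against 30.4% of all genes). The 5 fallers are not named here, and 0 fell in the spread-adjusted fit.

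The neutrophil attractants Cxcl1, Cxcl2, Cxcl3 and Cxcl6 rose among the CXC chemokines. Cxcl1 was at 189.7 to 374 (median 277) on sham and 662 to 1716 (median 1150.2) on smoke arrays, with no overlap (1.94 ± 0.16, adjusted p = 3.1e-11). Cxcl6 was near the floor on sham arrays, at 7.08 to 15.1 (median 10), and at 46.9 to 449 (median 193) on smoke arrays (2.88 ± 0.31). Cxcl2 rose by 2.30 ± 0.24, with 12.5 to 44.7 (median 20.7) on sham and 44.5 to 381 (median 199.9) on smoke arrays, where the lowest smoke and the highest sham array touched. Cxcl3 was bright already on sham arrays, at 4165 to 5342 (median 4927), and rose by 0.35 ± 0.046 to 5178 to 6691 (median 6291).

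Other CXC genes gave smaller or opposite changes. Cxcl9, which draws T cells, fell by 0.57 ± 0.20 (adjusted p = 0.017), a call that ended without HCR sham 0438 (adjusted p = 0.06), in the spread-adjusted fit (0.074) and with the mean of its probe sets, the highest adjusted p over the alternatives being 0.074. Cxcl10 gave 0.29 ± 0.21, the B cell attractant Cxcl13 0.29 ± 0.35 and the stromal chemokine Cxcl12 0.32 ± 0.14, none of which passed (adjusted p = 0.25, 0.52 and 0.058). Of 13 measured CXC genes 7 rose and 1 fell, with a median of 0.32. The 3 risers not yet given, named after their values were seen, were Cxcl11 (0.61 ± 0.13), Cxcl16 (0.19 ± 0.05) and the platelet gene Pf4 (0.52 ± 0.18).

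Cxcl1, Cxcl2 and Cxcl6 lie in 1 cluster on chromosome 14, and each holds the motif of NF-kB, the factor that many inflammatory signals activate, in its promoter window. The stretches are printed to let their motifs be compared, in RefSeq promoters of GRCr8, each 61 bases long, with the motif in capitals; all 3 genes lie on the reverse strand and are read 5′ to 3′ along it. Cxcl1 is at chr14:17479370-17479430, Cxcl2 at chr14:17467294-17467354 and Cxcl6 at chr14:17596470-17596530.
Cxcl1: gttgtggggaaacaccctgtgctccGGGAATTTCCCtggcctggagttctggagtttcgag
Cxcl2: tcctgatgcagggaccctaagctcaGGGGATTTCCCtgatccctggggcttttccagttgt
Cxcl6: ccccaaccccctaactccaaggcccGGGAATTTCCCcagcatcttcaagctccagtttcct
In each, matches on both strands overlap and together make the 11 capitals. Those of Cxcl6 differ from those of Cxcl1 at 0 positions and those of Cxcl2 at 1. The motif, 10 bases with some positions free and searched on both strands, was in 9.63% of the promoters of all 10945 measured genes. Of 11 CXC genes with a promoter 5 held it, among them 4 of the 5 that rose (these 3 and Cxcl11). Of 12 CC and CX3C genes with a promoter 3 held it, and of the 6 that rose 3 did. Among these, Ccl20 on chromosome 9 (chr9:91837045-91837104, forward strand) held 1 match.
Ccl20: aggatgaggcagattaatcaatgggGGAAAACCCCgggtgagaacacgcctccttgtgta

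The monocyte attractants Ccl2 and Ccl7 rose as well. Ccl2, the main ligand of the monocyte receptor Ccr2, was at 19.2 to 46.5 (median 28) on sham and 61.3 to 824 (median 268) on smoke arrays (2.52 ± 0.29, adjusted p = 3.3e-08), and Ccl7, a second ligand of that receptor, was at 11.3 to 21.6 (median 14.7) on sham and 32.1 to 193 (median 77) on smoke arrays (1.56 ± 0.23). Neither overlapped between the groups. Ccl20, which draws dendritic cells and Th17 cells, rose by 1.78 ± 0.32, Ccl4 by 1.15 ± 0.17, Ccl3 by 1.08 ± 0.19 and the membrane-bound Cx3cl1 by 0.62 ± 0.089. Of 17 measured CC and CX3C genes 9 rose and none fell (median 0.42).

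Cytokine genes rose from low levels. Tnf was at 11.7 to 49.8 (median 27) on sham and 48.6 to 156 (median 83.6) on smoke arrays (1.23 ± 0.15, adjusted p = 5.9e-08), and Il1b was at 72.7 to 275 (median 139.6) on sham and 148 to 401 (median 265) on smoke arrays (0.83 ± 0.17). Genes that damp interleukin 1 rose beside it: the decoy receptor Il1r2 by 1.56 ± 0.26 and the receptor antagonist Il1rn by 0.84 ± 0.15, the latter with no overlap. Csf1, the growth factor of macrophages, rose by 0.56 ± 0.08, with 119 to 184 (median 160.2) on sham and 198 to 315 (median 231) on smoke arrays. Il6 stayed near the floor, at 3.49 to 4.81 (median 4.0) and 4.34 to 22.1 (median 6.71) (0.26 ± 0.074, a call that ended in the spread-adjusted fit, the highest adjusted p being 0.054), and Csf3 did not pass (0.044 ± 0.024). The alarmin Il33 fell by 0.25 ± 0.088, a call that ended in 5 alternatives, among them those without HCR sham 0438 (adjusted p = 0.072) or 0439 (0.063), with adjusted p up to 0.078, and Il34, another ligand of the Csf1 receptor, fell by 0.28 ± 0.059. Of 27 measured genes 16 rose and 3 fell; 10 rose in the spread-adjusted fit.

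Neutrophil genes rose, with 1 sham animal high as well. S100a9, a subunit of calprotectin in neutrophils, was at 225 to 2428 (median 755) on sham and 1418 to 6143 (median 4132) on smoke arrays (2.29 ± 0.28, adjusted p = 6e-08), and its partner S100a8 was at 80.6 to 1167 (median 278) on sham and 384 to 2630.4 (median 1439.9) on smoke arrays (1.81 ± 0.35). HCR sham 0434 gave the highest sham value of both, above the lowest smoke arrays. Lcn2, which binds bacterial siderophores, rose by 2.09 ± 0.43, haptoglobin (Hp) by 1.15 ± 0.17, and the receptor gene Cxcr2 by 0.31 ± 0.10, the last call ending in 4 alternatives with adjusted p up to 0.075. Mmp9, the neutrophil gelatinase, did not pass (-0.071 ± 0.13, adjusted p = 0.68). Of 13 measured markers 9 rose and none fell; 6 of the 12 smoke arrays had a list mean above all sham arrays. In lung pieces, more cells of a type and more RNA per cell cannot be told apart.

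Macrophage genes moved in both directions. Mmp12, the macrophage elastase, was at 25.2 to 37.5 (median 30.1) on sham and 53.5 to 1857 (median 468) on smoke arrays (3.17 ± 0.39, adjusted p = 9.1e-08). Gpnmb, a glycoprotein of lipid-laden macrophages, was at 1687 to 2729.7 (median 2509.8) on sham and 2804 to 6006 (median 4755) on smoke arrays (1.0 ± 0.13), and the complement genes C1qb (1.06 ± 0.12) and C1qa (0.84 ± 0.12) rose as well. These 4 did not overlap between the groups, while Cd68, a lysosomal glycoprotein of macrophages, rose by 1.09 ± 0.16 with overlap. Cd163, the haemoglobin scavenger receptor of resident macrophages, fell by 0.77 ± 0.14, with 40.2 to 63.5 (median 50.3) on sham and 12.3 to 45 (median 24.3) on smoke arrays. Csf1r, the Csf1 receptor, fell by 0.33 ± 0.084 and Adgre1, which encodes F4/80, fell by 0.37 ± 0.12; both calls ended in the spread-adjusted fit (adjusted p = 0.14 and 0.21) and that of Adgre1 also in 2 other settings (adjusted p up to 0.21). The mannose receptor Mrc1 gave 0.097 ± 0.11 (adjusted p = 0.5). Of 21 measured markers 12 rose and 3 fell (median 0.40; 10 and 1 in the spread-adjusted fit), and the list mean of each smoke array (0.129 to 0.825) was above every sham array (-0.183 to 0.107).

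Lipid and lysosome genes moved beside the macrophage genes. Fabp5, a fatty acid carrier, rose by 0.80 ± 0.085 with no overlap, with 1362 to 2059 (median 1917) on sham and 2138 to 3787 (median 3183) on smoke arrays, and Acp5, the tartrate-resistant phosphatase, by 0.82 ± 0.12. Soat1, which esterifies cholesterol for storage, rose by 0.55 ± 0.095 and the sterol exporter Abcg1 by 0.28 ± 0.069. Pltp, the phospholipid transfer protein, fell by 0.37 ± 0.054, with the groups apart. The main sterol exporter Abca1 passed at -0.62 ± 0.24, a call lost in 15 alternatives, 10 of them leaving out 1 array (HCR sham 0434, 0435, 0436, 0438 or 0439, or HCR smoke 0410, 0413, 0415, 0417 or 0419), with adjusted p up to 0.67, and 2 of its 3 other probe sets were called higher. The lipid droplet coat gene Plin2 passed at 0.22 ± 0.084, a call lost in 8 alternatives, 4 of them leaving out 1 array (HCR sham 0432, 0434 or 0439, or HCR smoke 0418), with adjusted p up to 0.19. Of 16 genes 9 rose and 5 fell (6 and 1 in the spread-adjusted fit; 5 rose with the Actb covariate). Of 32 lysosome genes 21 rose and 3 fell (18 and 1 in the spread-adjusted fit), led by the tetraspanin Cd63 (0.44 ± 0.046, with 1991 to 2291 (median 2193) on sham and 2605 to 3201 (median 2958) on smoke arrays) and the protease gene Ctsd (0.63 ± 0.082, with 1949 to 2759 (median 2646) on sham and 2796 to 4767 (median 3891) on smoke arrays). Ctsb (0.27 ± 0.045), Ctss (0.40 ± 0.083), the progranulin gene Grn (0.38 ± 0.062) and the proton pump gene Atp6v1b2 (0.45 ± 0.071) rose too, and the sphingomyelinase gene Smpd1 fell (-0.22 ± 0.038). The membrane protein Lamp1 passed at 0.098 ± 0.029, a call lost in 2 alternatives, with adjusted p up to 0.5.

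Antigen presentation genes rose by small amounts. Of 8 MHC class II genes 7 rose and none fell (median 0.41). RT1-DMa, which edits peptide loading, was at 172 to 209 (median 198) on sham and 263 to 441 (median 318) on smoke arrays (0.67 ± 0.087, adjusted p = 2.1e-07), and the invariant chain Cd74 was at 4767 to 5426 (median 5153) on sham and 5765 to 6331 (median 5899) on smoke arrays (0.21 ± 0.027), both with no overlap. RT1-Da, a class II alpha chain, rose by 0.34 ± 0.052, and Ciita, the master regulator of the class, by 0.31 ± 0.077. Among 10 dendritic cell markers 4 rose, including Irf8 (0.39 ± 0.094) and Cd83 (0.40 ± 0.091), and 1 fell, Cd1d1 (-0.54 ± 0.062, with 172 to 207 (median 185) on sham and 87.5 to 146 (median 132) on smoke arrays). The receptor kinase Flt3 did not pass (0.087 ± 0.064).

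Lymphocyte markers gave few calls. Bank1, a scaffold of B cell receptor signalling, fell by 1.42 ± 0.15, with 202 to 271 (median 251) on sham and 47.4 to 144 (median 85) on smoke arrays, with no overlap. The B cell surface gene Ms4a1 (0.13 ± 0.20, adjusted p = 0.64) and the joining chain Jchain of plasma cells (0.13 ± 0.14, adjusted p = 0.44) did not pass. Of 13 B and plasma cell markers 3 rose (23.1%, against 17.7% of all genes) and 1 fell (7.69%, against 30.4%). Bank1 was the only faller, and 2 of the 3 risers, which are not named here, also had groups apart. The spread-adjusted fit gave 1 rise and 1 fall. Of 19 T cell markers 4 rose (21.1%, against 17.7% of all genes) and 2 fell (10.5%, against 30.4%), 2 and 0 in the spread-adjusted fit. Without HCR sham 0432 and 0433 together 8 rose. Il7r rose by 0.50 ± 0.10 and the costimulator Icos by 0.36 ± 0.076, and the 2 fallers are not named here. Cd3e (0.065 ± 0.11) and Cd8a (-0.31 ± 0.17) did not pass. The T cell list mean lay above all sham arrays on 0 smoke arrays and below them on 0. Cd4 passed at 0.24 ± 0.095, a call lost in 11 alternatives, 5 of them leaving out 1 array (HCR sham 0432, 0434, 0435 or 0436, or HCR smoke 0417), with adjusted p up to 0.44. None of 16 cytotoxic and NK cell genes passed in limma (0 at an unadjusted p under 0.05), while 5 were higher with the Actb covariate and 3 without HCR sham 0432. The granzymes Gzma (-0.044 ± 0.23) and Gzmb (0.28 ± 0.27) were among them. Prf1 (perforin) spread widely, with 49.5 to 514 (median 97.3) on sham and 56.5 to 259 (median 233) on smoke arrays.

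Of 15 mast cell, basophil and eosinophil genes 1 rose (6.67%, against 17.7% of all genes) and 2 fell (13.3%, against 30.4%). The spread-adjusted fit gave 1 rise and 1 fall. The mast cell proteases Cpa3 (-0.29 ± 0.38) and Tpsab1 (-0.067 ± 0.28) and the IgE receptor subunit Ms4a2 (-0.063 ± 0.11) did not pass. The transcription factor Gata2, which mast cells and endothelium share, fell by 0.60 ± 0.086, with 481 to 768 (median 681) on sham and 320.5 to 493 (median 438) on smoke arrays.

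Airway defence genes rose with a wide spread between smoke animals. Lpo, the lactoperoxidase of airway secretions, was at 10.7 to 33.4 (median 16) on sham and 28.1 to 1142 (median 415) on smoke arrays (3.41 ± 0.40, adjusted p = 3.5e-08). Orm1, an acute phase protein, rose by 2.59 ± 0.37, Bpifb1, a secreted protein of mucous glands, by 2.37 ± 0.45 and Saa3, a serum amyloid, by 1.76 ± 0.23. Each of these 4 overlapped between the groups. Complement C3 rose by 1.15 ± 0.12 with the groups apart, with 1234 to 1930.3 (median 1706) on sham and 2061 to 4832 (median 3653) on smoke arrays, and so did the antibody transporter Pigr (0.26 ± 0.039).

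The calls of several mucous cell genes ended in some alternatives. Agr2, which folds mucins, was at 61.5 to 282 (median 145) on sham and 99.6 to 1703 (median 329) on smoke arrays (1.44 ± 0.45), Scgb3a1, a secretoglobin of mucous cells, was at 26.3 to 1258 (median 124) on sham and 91.8 to 3454 (median 367) on smoke arrays (1.89 ± 0.63), and the mucin Muc5b was at 38.6 to 146 (median 45.4) on sham and 36 to 1094 (median 99.1) on smoke arrays (1.30 ± 0.49). All 3 calls ended without HCR smoke 0410, 0414, 0415 and 0417 and in the spread-adjusted fit, with adjusted p up to 0.2, 0.17 and 0.4, and that of Muc5b also ended without HCR smoke 0415 alone (adjusted p = 0.053) or HCR sham 0433 (0.05). The gel mucin Muc5ac was dim on all arrays (10.1 to 15.2 (median 13.4) and 11.4 to 18.7 (median 15.4)), and it passed at 0.11 ± 0.048, a call lost in 20 alternatives, 12 of them leaving out 1 array (HCR sham 0432, 0434, 0435 or 0436, or HCR smoke 0408, 0410, 0411, 0412, 0414, 0415, 0417 or 0419), with adjusted p up to 0.72. Of 23 mucous and defence genes 16 rose and 1 fell, against 9 risers without those 4 arrays and 7 in the spread-adjusted fit. HCR smoke 0415 (1.68), 0417 (1.55) and 0410 (1.54) had the highest means of this list; the same arrays had heart muscle list means of 3.39, 1.41 and 2.74, and their part in the rise was not tested. Scgb1a1, the club cell protein, did not pass (0.023 ± 0.028) at intensities near the top of the scale, and Foxj1, the master regulator of ciliated cells, gave 0.22 ± 0.23. Of 11 ciliated cell genes 1 passed, Tppp3, which fell by 0.54 ± 0.088.

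**Figure D2:**
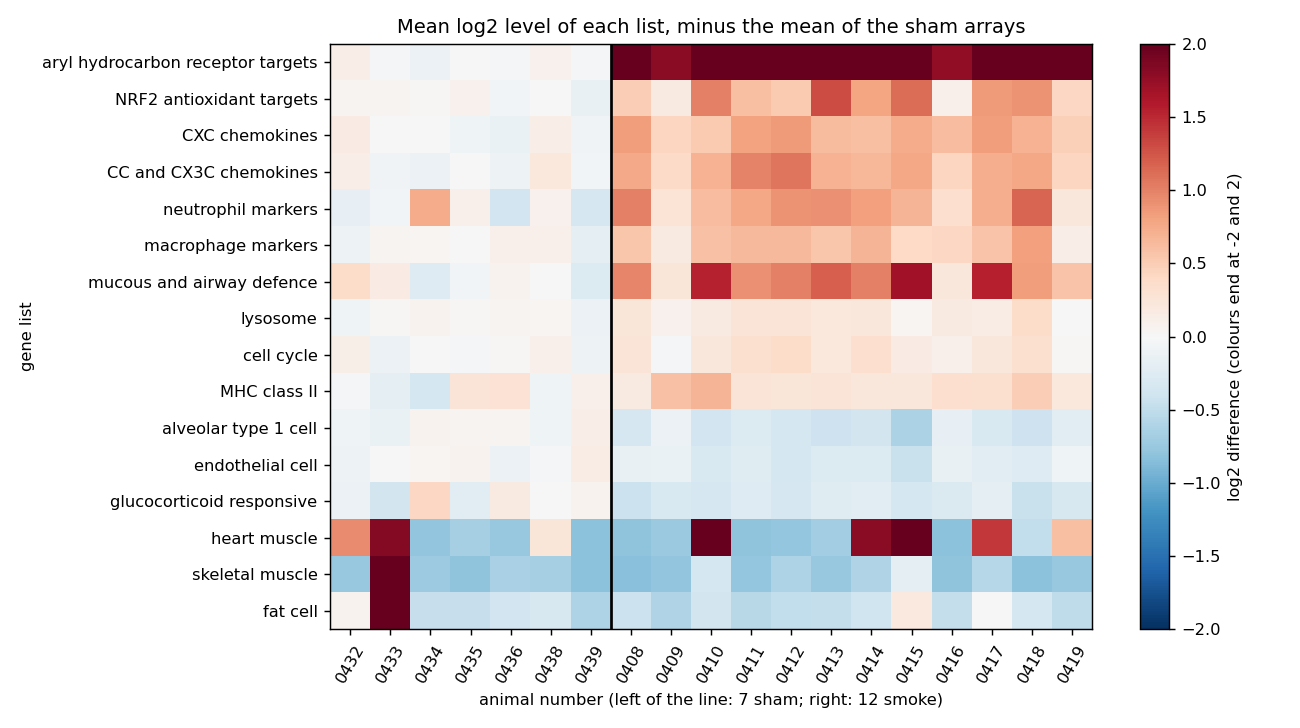
Mean log2 level of 16 gene lists on each array, minus the mean of the 7 sham arrays, with sham animals left of the black line and 12 smoke animals right of it; red is higher and colours end at -2 and 2. The aryl hydrocarbon receptor row is at least 1.77 on every smoke array, and the bottom rows show high heart muscle genes on HCR smoke 0410, 0414, 0415 and 0417 and HCR sham 0433, and skeletal muscle and fat genes on HCR sham 0433.

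Ion and water channels of the epithelium moved in both directions. Slc26a4, the anion exchanger pendrin, was at 24.4 to 64.9 (median 56.8) on sham and 69.5 to 556 (median 378) on smoke arrays (2.37 ± 0.25, adjusted p = 6.9e-09) with no overlap. The chloride channel Cftr rose by 0.75 ± 0.14, and the water channels Aqp3 and Aqp4 by 1.02 ± 0.22 and 1.0 ± 0.15. Subunits of the sodium channel fell: Scnn1a fell by 0.69 ± 0.10, with 828 to 1447 (median 1063) on sham and 512 to 862 (median 670.2) on smoke arrays, and Scnn1g fell by 0.48 ± 0.093. Slc12a2, the cotransporter that loads cells with chloride, fell by 0.40 ± 0.066, and the alveolar water channel Aqp5 fell by 0.42 ± 0.078, both with the groups apart, while Aqp1 of vessels rose by 0.46 ± 0.11. In all 6 of 15 rose and 5 fell, and in the spread-adjusted fit 5 and 5 did.

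Metal handling genes moved in both directions. Mt2A, a metallothionein that binds zinc and cadmium, was at 90.5 to 175 (median 102) on sham and 262 to 1068 (median 680.2) on smoke arrays (2.34 ± 0.22, adjusted p = 9.2e-10) with no overlap, whereas the probe set of Mt1 was dim on all arrays and gave 0.03 ± 0.058 (adjusted p = 0.69). Of 13 metallothionein and zinc genes 3 rose (23.1%, against 17.7% of all genes) and 1 fell (7.69%, against 30.4%). In the spread-adjusted fit 2 rose and 0 fell, and 7 rose with median-centred arrays. The zinc exporter Slc30a1 passed at 0.42 ± 0.16, a call lost in 7 alternatives, 1 of them leaving out 1 array (HCR sham 0432), with adjusted p up to 0.56. The importer Slc39a14 did not pass (0.16 ± 0.079). Another importer, Slc39a8, passed at -0.28 ± 0.11, a call lost in 12 alternatives, 6 of them leaving out 1 array (HCR sham 0434, 0435 or 0436, or HCR smoke 0410, 0413 or 0415), with adjusted p up to 0.5. Among iron genes, the transferrin receptor Tfrc rose by 0.66 ± 0.089, with 223 to 291 (median 234) on sham and 320.2 to 620.4 (median 404) on smoke arrays, and the divalent metal importer Slc11a2 by 0.93 ± 0.12. The ferroxidase Heph fell by 0.54 ± 0.086, and the iron exporter Slc40a1 passed at 0.34 ± 0.10, lost in 4 alternatives (adjusted p up to 0.093). Of 14 iron genes 10 rose and 1 fell, 4 rising in the spread-adjusted fit.

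Of 22 prostaglandin and leukotriene genes 9 rose and 3 fell (8 and 2 in the spread-adjusted fit). Ptgs2, the inducible cyclooxygenase, was at 8.22 to 18.4 (median 12.6) on sham and 25.7 to 104 (median 60.6) on smoke arrays (1.32 ± 0.21, adjusted p = 4.2e-06) with no overlap, and Pla2g4a, which frees arachidonic acid, rose by 0.47 ± 0.11. Hpgd, which inactivates prostaglandins, fell by 0.82 ± 0.17, with 448 to 964 (median 854) on sham and 255 to 587 (median 459.7) on smoke arrays. The haematopoietic prostaglandin D synthase Hpgds rose by 0.57 ± 0.086 and the receptor gene Ptger2 by 0.35 ± 0.079, while the constitutive Ptgs1 (0.072 ± 0.082) and the lipoxygenase Alox5 (-0.12 ± 0.092) did not pass. The prostaglandin E synthase Ptges passed at 0.63 ± 0.23, a call lost in 3 alternatives, with adjusted p up to 0.081.

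Alveolar type 1 genes fell. Of 15 measured markers of the flat gas exchange cells 13 fell and none rose (median -0.27; 11 fell in the spread-adjusted fit). Ager, the receptor for glycation products on these cells, was at 4516 to 5771 (median 5022) on sham and 3071 to 4473 (median 3888) on smoke arrays (-0.39 ± 0.054, adjusted p = 5.9e-07) with no overlap. Akap5, a kinase anchor protein, fell by 1.09 ± 0.19, with 343 to 1048 (median 977) on sham and 238 to 632 (median 319) on smoke arrays, and podoplanin (Pdpn) fell by 0.30 ± 0.052. The list mean was lower on 11 of 12 smoke arrays than on any sham array. The caveolin Cav1 fell by 0.20 ± 0.041, a call that ended with the mean of its probe sets (adjusted p = 0.23, the highest over the alternatives).

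Type 2 cell genes moved in both directions. Chia, the acidic chitinase, was at 869.8 to 1782 (median 1125) on sham and 2786 to 5913 (median 4831) on smoke arrays (1.90 ± 0.14, adjusted p = 5e-12) with no overlap, and Lamp3, a lamellar body protein, rose by 0.45 ± 0.074. The surfactant genes Sftpc (0.015 ± 0.019) and Sftpb (-0.068 ± 0.036) did not pass; Sftpd did (0.17 ± 0.053), a call lost in 5 alternatives, with adjusted p up to 0.2. Sftpa1 passed at 0.09 ± 0.036, a call lost in 14 alternatives, 5 of them leaving out 1 array (HCR sham 0432, 0433 or 0439, or HCR smoke 0409 or 0414), with adjusted p up to 0.46. Sftpc intensities lie near the top of the array's scale. Of 17 type 2 genes 4 rose (23.5%, against 17.7% of all genes) and 3 fell (17.6%, against 30.4%). All 4 risers are given above, while the 3 fallers, none with groups apart, are not named here. In the spread-adjusted fit 2 rose and 0 fell, and with median-centred arrays 7 rose.

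Of 26 endothelial genes 16 fell and 2 rose (median -0.26), and 9 fell in the spread-adjusted fit. Ace, the angiotensin-converting enzyme of lung capillaries, was at 2393 to 2882 (median 2748) on sham and 1539 to 2078 (median 1872) on smoke arrays (-0.49 ± 0.06, adjusted p = 7.9e-08), and Ramp2, the partner of the adrenomedullin receptor, was at 3673 to 4717 (median 4175) on sham and 2490.0 to 3555 (median 3036) on smoke arrays (-0.46 ± 0.059). Neither overlapped between the groups. The adhesion molecule Pecam1 fell by 0.46 ± 0.065 and the receptor kinase Tie1 fell by 0.48 ± 0.067, whereas Kdr, a receptor of vascular growth factor, gave -0.11 ± 0.055 (adjusted p = 0.099). Ackr3, a scavenger receptor of Cxcl12, rose by 0.32 ± 0.069. Vwf fell by 0.29 ± 0.089, a call lost in 4 alternatives (adjusted p up to 0.51).

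Of 16 smooth muscle and pericyte genes 1 rose and 5 fell (31.2%, against 30.4% of all genes), 0 and 2 in the spread-adjusted fit. Pdgfrb, the platelet-derived growth factor receptor of pericytes, was at 162 to 220.2 (median 180.1) on sham and 84.7 to 137 (median 105) on smoke arrays (-0.74 ± 0.075, adjusted p = 3.3e-09), and Cspg4, the NG2 proteoglycan, fell by 0.59 ± 0.073, both with no overlap. The smooth muscle genes Acta2 (0.27 ± 0.24), Tagln (-0.043 ± 0.21) and Myh11 (-0.15 ± 0.22) did not pass.

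Of 32 matrix genes 10 fell (31.2%, against 30.4% of all genes) and 1 rose; 5 fell in the spread-adjusted fit. Emilin1, which sits on elastic fibres, was at 451 to 539 (median 460.2) on sham and 243 to 391 (median 358) on smoke arrays (-0.55 ± 0.087, adjusted p = 5e-06) with no overlap. The basement membrane collagens Col4a2 fell by 0.48 ± 0.087 and Col4a1 fell by 0.30 ± 0.066, and Col6a1 fell by 0.38 ± 0.063. Elastin (Eln) fell by 0.86 ± 0.23, with 433 to 761 (median 511) on sham and 113 to 534 (median 313) on smoke arrays, a call that ended in the spread-adjusted fit (adjusted p = 0.16, the highest over the alternatives). The fibrillar collagens Col1a1 (-0.17 ± 0.17) and Col3a1 (0.16 ± 0.12), fibronectin Fn1 (0.12 ± 0.064), tenascin Tnc (0.33 ± 0.15) and the crosslinking enzyme Lox (0.22 ± 0.15) did not pass.

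Proteases and their inhibitors moved both ways. Apart from Mmp12, the membrane-bound Mmp14 rose by 0.37 ± 0.12, a call that ended without HCR sham 0438 (adjusted p = 0.057, the highest over the alternatives), and Mmp11 fell by 0.68 ± 0.098, with 72.8 to 97.2 (median 86.3) on sham and 25.6 to 63.7 (median 53.3) on smoke arrays. Among inhibitors, the complement inhibitor Serping1 rose by 0.54 ± 0.081, and Timp4 fell by 0.41 ± 0.08. Timp1 rose by 0.33 ± 0.094 and Timp3 fell by 0.31 ± 0.074, and the calls ended in 2 and 1 alternatives (adjusted p up to 0.059 and 0.077). The antiprotease Slpi passed at 0.61 ± 0.25, a call lost in 12 alternatives, 10 of them leaving out 1 array (HCR sham 0435, 0436 or 0439, or HCR smoke 0408, 0410, 0412, 0413, 0415, 0417 or 0419), with adjusted p up to 0.22, and Serpina1 did not (-0.095 ± 0.20). Of 30 genes 8 rose (26.7%, against 17.7% of all genes) and 5 fell (16.7%, against 30.4%). In the spread-adjusted fit 6 rose and 3 fell.

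**Figure D3:**
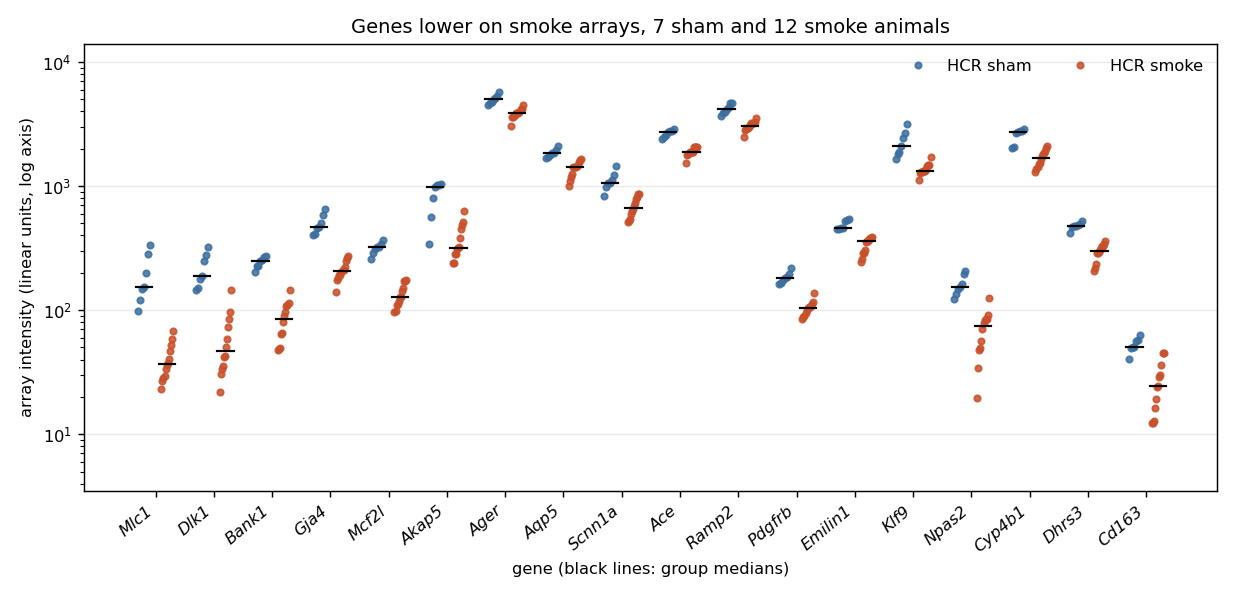
Array intensity (log axis) of 18 genes that fell, on each of 7 HCR sham (blue) and 12 HCR smoke (orange) arrays, 1 point per animal, with black lines at the group medians. Ace and Pdgfrb have tight groups with a gap, while those of Ager nearly touch (lowest sham 4516, highest smoke 4473). Akap5, Klf9, Npas2, Scnn1a, Cyp4b1 and Cd163 overlap.

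Of 17 clock genes 4 rose (23.5%, against 17.7% of all genes) and 4 fell (23.5%, against 30.4%), 3 and 1 in the spread-adjusted fit. Npas2, a partner of Bmal1, was at 123 to 208 (median 153) on sham and 19.4 to 125 (median 75.2) on smoke arrays (-1.12 ± 0.22, adjusted p = 8.6e-05). Bmal1 itself fell by 0.72 ± 0.23 and Clock fell by 0.26 ± 0.08, and both calls ended in the spread-adjusted fit and without HCR smoke 0410, 0414, 0415 and 0417 (adjusted p up to 0.19 and 0.56). Among repressors, Per2 rose by 0.95 ± 0.23 and Bhlhe41 by 0.82 ± 0.13, with 132 to 284 (median 238) on sham and 273 to 556 (median 448) on smoke arrays, but Per1 fell by 0.72 ± 0.22, a call lost in 3 alternatives (adjusted p up to 0.084). Nr1d1 was at 84 to 784 (median 489) on sham and 222 to 479 (median 348) on smoke arrays (-0.00093 ± 0.31), and Dbp gave 0.69 ± 0.41 and Per3 0.38 ± 0.22, none past the threshold. The labels give no time of day, and its part was not tested.

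Glucocorticoid responsive genes fell where they passed. Klf9 was at 1657 to 3195 (median 2090.1) on sham and 1126 to 1722 (median 1329) on smoke arrays (-0.68 ± 0.089, adjusted p = 2.8e-07), and Errfi1, an inhibitor of the epidermal growth factor receptor, fell by 0.69 ± 0.11 with no overlap. Tsc22d3, which encodes the leucine zipper protein GILZ, passed at -0.35 ± 0.14, a call lost in 8 alternatives, 5 of them leaving out 1 array (HCR sham 0434, 0436 or 0439, or HCR smoke 0408 or 0418), with adjusted p up to 0.11. Pdk4, which shuts off pyruvate use, fell by 0.88 ± 0.19, a call that ended in the spread-adjusted fit (adjusted p = 0.072, the highest over the alternatives), and Fkbp5 gave -0.44 ± 0.23 (adjusted p = 0.12). Of 12 genes none rose and 5 fell (41.7%, against 30.4% of all genes), with a median of -0.25, and 2 fell in the spread-adjusted fit. The list mean lay below all sham arrays on 2 of 12 smoke arrays.

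Cell cycle genes rose by small amounts from dim levels. Of 30 genes 18 rose and 3 fell (median 0.24; 17 and 0 in the spread-adjusted fit). The mitotic kinase Plk1 was at 34.7 to 50.8 (median 43) on sham and 51.1 to 77.4 (median 63.9) on smoke arrays (0.43 ± 0.066, adjusted p = 3.4e-06), Cdk1 rose by 0.53 ± 0.10 and the cyclin Ccnb1 by 0.33 ± 0.06. The replication clamp Pcna rose by 0.17 ± 0.041. Mki67 rose by 0.38 ± 0.12 and Top2a by 0.28 ± 0.094, and both calls ended in that fit (adjusted p = 0.054 and 0.28, the highest over the alternatives).

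Targets of p53 moved in both directions. Sesn1, an antioxidant sestrin, fell by 0.55 ± 0.089, with 242 to 345 (median 291) on sham and 150.4 to 248 (median 196) on smoke arrays, and Phlda3, which inhibits Akt, fell by 0.44 ± 0.087. Gdf15, a stress cytokine, rose by 1.06 ± 0.20, with 38.2 to 56.6 (median 43.2) on sham and 44.7 to 189.7 (median 110.1) on smoke arrays. Ccng1, a cyclin G, did not pass (0.13 ± 0.07). The inhibitor Cdkn1a passed at -0.34 ± 0.14, a call lost in 16 alternatives, 8 of them leaving out 1 array (HCR sham 0432, 0434, 0435, 0436 or 0438, or HCR smoke 0408, 0409 or 0410), with adjusted p up to 0.2. The ubiquitin ligase Mdm2 passed at 0.21 ± 0.082, a call lost in 9 alternatives, 7 of them leaving out 1 array (HCR sham 0433, 0434, 0436 or 0439, or HCR smoke 0410, 0413 or 0415), with adjusted p up to 0.17. Of 19 genes 4 rose (21.1%, against 17.7% of all genes) and 9 fell (47.4%, against 30.4%). In the spread-adjusted fit 4 rose and 3 fell.

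Immediate early genes held a wide spread in both groups. Fos was at 209 to 1669.6 (median 575) on sham and 231 to 3191 (median 491) on smoke arrays (-0.043 ± 0.44), and Egr1 (0.022 ± 0.30), Jun (-0.23 ± 0.13), Nr4a1 (-0.29 ± 0.23) and Atf3 (0.22 ± 0.27) did not pass either. Maff, a small partner of NRF2, rose by 0.82 ± 0.12 with no overlap, with 123 to 211 (median 158) on sham and 218 to 415 (median 263) on smoke arrays, Nr4a3 by 0.92 ± 0.22 and Myc by 0.49 ± 0.11. Of 24 genes 9 rose and none fell, 4 rising in the spread-adjusted fit and 5 without HCR sham 0432 and 0433. Chaperone genes gave 6 rises and 2 falls among 23, against 2 and 3 in the spread-adjusted fit, with Xbp1 at 0.27 ± 0.044 and Atf5 at -0.47 ± 0.078, while Hspa5 (0.084 ± 0.095), Ddit3 (-0.034 ± 0.055) and Hspb1 (-0.12 ± 0.11) did not pass. The cochaperone Dnajb1 passed at 0.34 ± 0.096, a call lost in 1 alternative, with adjusted p up to 0.31. Interferon genes gave 3 rises and 1 fall among 23 (2 and 0 in the spread-adjusted fit); Irf1 rose by 0.24 ± 0.049, and Mx1 (0.075 ± 0.25), Isg15 (0.17 ± 0.18) and Irf7 (0.13 ± 0.22) did not pass.

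Fuel genes moved in both directions. Among 22 glycolysis and hypoxia genes 9 rose and 2 fell, with the glucose carrier Slc2a1 at 0.51 ± 0.10, lactate dehydrogenase Ldha at 0.36 ± 0.062 and the growth factor Vegfa at -0.24 ± 0.059. The hexokinase Hk2 rose by 0.33 ± 0.081, and Pgk1 did not pass (0.057 ± 0.047). Fatty acid oxidation genes fell in 9 of 19 and rose in 1 (median -0.17), but 1 fell in the spread-adjusted fit; Acadm, the medium-chain dehydrogenase, was at 862 to 1353 (median 916) on sham and 722 to 869 (median 786) on smoke arrays (-0.32 ± 0.063). The carnitine carrier enzyme Cpt1a (-0.19 ± 0.095) and Hadha (-0.05 ± 0.054) did not pass. Respiratory chain genes gave 2 rises and 3 falls among 24 (1 and 1 in the spread-adjusted fit), and none fell with median-centred arrays or without HCR sham 0433. Of its leading genes Ndufb8 (-0.0054 ± 0.073), Sdha (-0.10 ± 0.046), Uqcrc2 (-0.026 ± 0.065), Cox5a (-0.14 ± 0.068) and Atp5f1b (-0.03 ± 0.049), 1 from each complex, none passed. Sterol and fatty acid synthesis genes fell in 6 of 20 (30.0%, against 30.4% of all genes), 2 in the spread-adjusted fit and 3 without HCR sham 0432 or without HCR sham 0433, with Mvk at -0.41 ± 0.06 and Srebf2 at -0.26 ± 0.066. Sqle, the squalene epoxidase (-0.03 ± 0.15), and the fatty acid synthase Fasn (-0.019 ± 0.07) did not pass.

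Retinoic acid genes moved in both directions. Dhrs3, which turns retinal back to retinol, was at 416 to 522 (median 480.1) on sham and 207 to 360.2 (median 299) on smoke arrays (-0.69 ± 0.083, adjusted p = 6.1e-08) and Cyp26b1, which degrades retinoic acid, was at 129 to 463 (median 209.7) on sham and 64.9 to 153 (median 96.1) on smoke arrays (-1.09 ± 0.18). Rdh10, which makes retinal, rose by 0.60 ± 0.071, with 80.8 to 103 (median 96.6) on sham and 123 to 177 (median 152) on smoke arrays, and the groups of Dhrs3 and Rdh10 did not overlap. The receptor Rarb passed at -0.18 ± 0.071, a call lost in 15 alternatives, 7 of them leaving out 1 array (HCR sham 0432, 0438 or 0439, or HCR smoke 0412, 0413, 0414 or 0415), with adjusted p up to 0.83. Of 17 genes 3 rose (17.6%, against 17.7% of all genes) and 7 fell (41.2%, against 30.4%). In the spread-adjusted fit 1 rose and 2 fell.

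**Figure D4:**
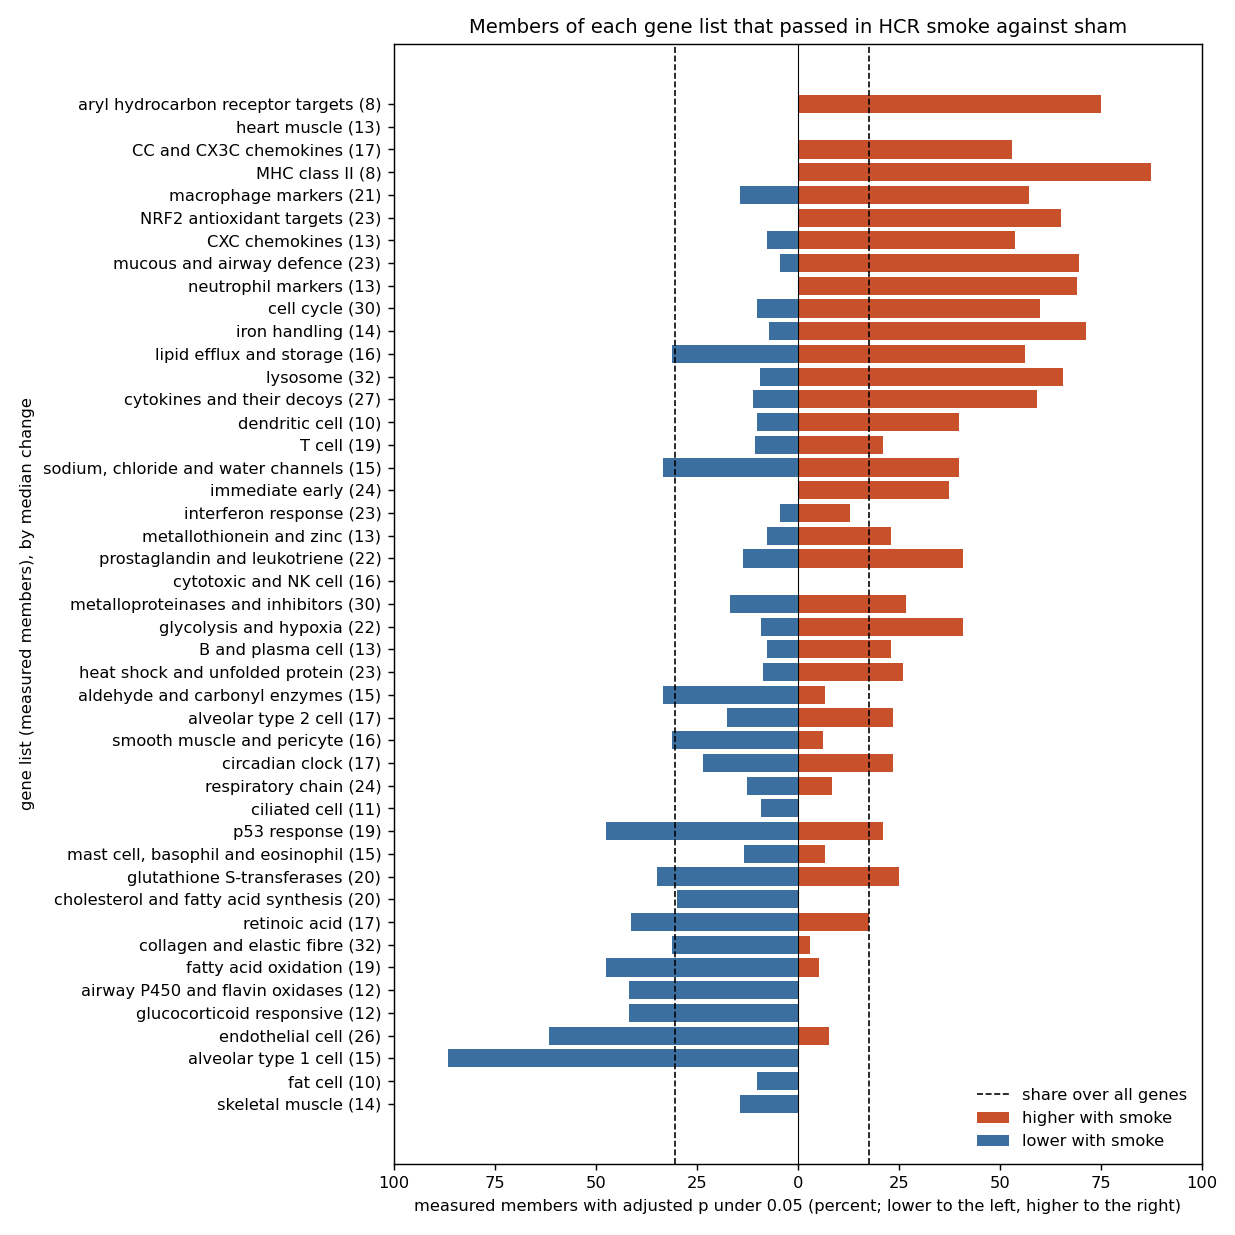
Percent of the measured members of each gene list shown (number in brackets) that rose (right) or fell (left) with adjusted p under 0.05 in HCR. Lists are ordered by their median change, with dashed lines at 17.7% higher and 30.4% lower over all genes. Thymus, with 1 measured gene, and red blood cell, with 4, are not drawn. The longest bars are those of MHC class II, aryl hydrocarbon receptor and iron genes upward and of alveolar type 1 genes downward.

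Several of the largest falls belong to no list. Mlc1, a membrane protein best known in astrocytes, was at 98.5 to 333 (median 155) on sham and 23.1 to 67.9 (median 36.7) on smoke arrays, the largest fall by the naming rule (-1.82 ± 0.22, adjusted p = 7.9e-08). Dlk1, a Notch-like inhibitor of fat cell formation, was at 146 to 324 (median 188) on sham and 21.8 to 144 (median 46.6) on smoke arrays (-1.69 ± 0.29). Gja4, the arterial connexin 37, was at 404 to 656 (median 469.9) on sham and 139 to 272 (median 205) on smoke arrays (-1.19 ± 0.11). All 3 had groups that did not overlap.

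Mcf2l fell by 1.17 ± 0.097, with 260.1 to 365 (median 323) on sham and 97.5 to 175 (median 128) on smoke arrays (adjusted p = 5.3e-11, the lowest among the 20 largest falls). Syndig1 (-1.27 ± 0.14), Tent5b (-1.31 ± 0.17), Ydjc (-1.09 ± 0.11) and LOC102555465 (-1.06 ± 0.12) also had groups apart. Slc15a2, a peptide carrier, fell by 1.21 ± 0.14, Spon2 fell by 1.31 ± 0.24, Nxpe1 fell by 1.27 ± 0.19, Siglec5 fell by 1.23 ± 0.30, Fam13a fell by 1.13 ± 0.17 and Cdh22 fell by 1.04 ± 0.20. The amino acid carrier Slc6a15 (-1.37 ± 0.36) and Depp1 (-1.17 ± 0.29) were also among the 20 largest falls, with Bank1, Akap5, Npas2 and Cyp26b1 given above, and both calls ended in the spread-adjusted fit (adjusted p = 0.15 and 0.25, the highest over the alternatives).

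Markers of other tissues were tracked on each array. Of 13 heart muscle genes none passed in limma (1 at an unadjusted p under 0.05), but the list mean ran from -0.826 to 1.84 on sham and from -0.825 to 3.39 on smoke arrays, highest among smoke arrays on HCR smoke 0415, 0410, 0414 (1.8) and 0417 (1.41), with HCR sham 0433 at 1.84 and HCR sham 0432 at 0.952. Troponin genes Tnnt2 (0.66 ± 0.75) and Tnni3 (0.33 ± 0.75) did not pass; Myh6, the atrial myosin, was at 6.44 to 875 (median 13.9) on sham and 6.92 to 3096 (median 17.2) on smoke arrays. Skeletal muscle genes stood at 4.41 on HCR sham 0433 and at most -0.202 on any other HCR array, and fat genes at 2.19 on that array, against at most 0.196 on the others. The skeletal muscle genes Acta1 (-0.37 ± 0.57), Myh4 (-0.55 ± 0.29), Myl11 (-0.94 ± 0.46) and Ckm (-0.48 ± 0.65) and the fat genes Plin1 (-0.27 ± 0.16) and Cfd (-0.39 ± 0.20) did not pass. The fat gene Adipoq was at 5.94 to 133 (median 7.33) on sham and 5.48 to 57.9 (median 8.33) on smoke arrays and did not pass, while the lipase gene Lipe fell by 0.91 ± 0.099, with 212 to 448 (median 378) on sham and 120.5 to 221 (median 192) on smoke arrays. Without the 4 smoke arrays 5813 genes passed, and without HCR sham 0432 and 0433 5827 did. Of 4 red cell genes 1 rose and 1 fell, with Hbb at 0.012 ± 0.059 and Alas2 at 0.046 ± 0.22, neither of which passed.

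The same schedule in LCR animals gave a test of whether the changes differ between lines, on separate control animals. The smoke change differed between the lines for 266 of 14217 genes (1.87%), 216 higher (1.52%) and 50 lower (0.352%) in LCR, and for 131 of the 6830 genes called in HCR (1.92%). Of these 131, 66 had the same sign in both lines, 47 of them larger in LCR, and 32 were called in opposite directions. The count moved with the setting: it was 1537 with array weights, 549 with median-centred arrays, and 629 and 562 with the Actb and the Gapdh difference as a further term. With 1 array left out it was 768 without HCR sham 0432, 81 without HCR sham 0434, 107 without HCR sham 0436, 129 without HCR sham 0435, 518 without HCR sham 0439, 404 without HCR smoke 0412 and 175 without HCR smoke 0419. For Cyp1a1 the changes were 7.19 ± 0.14 in HCR and 7.13 ± 0.14 in LCR, a difference of -0.066 ± 0.20 that did not pass (adjusted p = 0.89), and for Cxcl1 they were 1.94 ± 0.16 and 2.12 ± 0.16 (adjusted p = 0.7).

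The genes named for the lowest p of the difference were chosen for it, and their values are a description. Calls said to be lost or ended here are those of the HCR change. The line difference of single genes over the alternatives is not given. Fetub, a fetuin that inhibits proteases, rose by 0.70 ± 0.11 in HCR, with 633 to 1241 (median 1111) on sham and 1019.6 to 1884 (median 1749) on smoke arrays, and by 1.48 ± 0.11 in LCR (adjusted p of the difference = 0.0092). Mab21l3 rose by 0.47 ± 0.096 and 1.28 ± 0.096 and Mgst2, a microsomal glutathione transferase, by 0.17 ± 0.051 and 0.59 ± 0.051 (adjusted p of the difference = 0.0022 and 0.0024). Pfkfb1, a regulator of glycolysis, fell by 0.72 ± 0.098 in HCR, with 42.4 to 99 (median 68.2) on sham and 28.1 to 47.1 (median 36) on smoke arrays, and gave -0.018 ± 0.098 in LCR (adjusted p of the difference = 0.0092). Sec14l2 fell by 0.43 ± 0.095 in HCR and gave 0.32 ± 0.095 in LCR, and Pla1a -0.22 ± 0.057 and 0.19 ± 0.057; the HCR call of Sec14l2 ended in the spread-adjusted fit (adjusted p = 0.073, the highest over the alternatives). Pik3c2b gave 0.22 ± 0.092 in HCR and -0.59 ± 0.092 in LCR. Its HCR call was lost in 11 alternatives, 10 of them leaving out 1 array (HCR sham 0434, 0436 or 0439, or HCR smoke 0408, 0409, 0410, 0411, 0412, 0413 or 0416), with adjusted p up to 0.15. Paqr4 gave -0.17 ± 0.068 in HCR and 0.43 ± 0.068 in LCR. Its HCR call was lost in 14 alternatives, 8 of them leaving out 1 array (HCR sham 0434, 0435 or 0436, or HCR smoke 0414, 0415, 0417, 0418 or 0419), with adjusted p up to 0.66. Ucp2, a mitochondrial uncoupling protein, gave -0.14 ± 0.059 in HCR and 0.28 ± 0.059 in LCR. Its HCR call was lost in 15 alternatives, 9 of them leaving out 1 array (HCR sham 0434, 0436 or 0438, or HCR smoke 0408, 0409, 0413, 0415, 0417 or 0419), with adjusted p up to 0.22. Tgfa, a ligand of the epidermal growth factor receptor, gave -0.22 ± 0.063 in HCR and 0.31 ± 0.063 in LCR. Its HCR call was lost in 2 alternatives, with adjusted p up to 0.36.

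**Figure D5:**
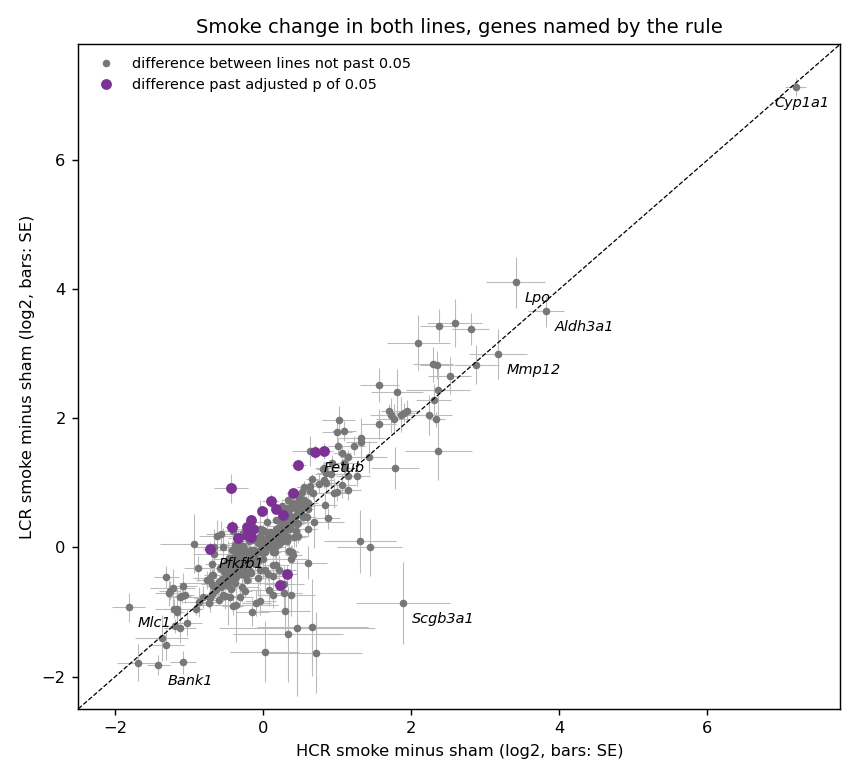
Smoke change in HCR (x axis) against LCR (y axis) in log2, with bars of 1 SE, for the genes named by the rule; the dashed line marks equal change and purple points have a line difference past an adjusted p of 0.05. Cyp1a1 lies close to the line at 7.19 and 7.13, and Fetub lies above it at 0.70 and 1.48.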

How the data were processed

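Lung RNA of single animals was measured on 1 Affymetrix array per animal, 7 HCR sham, 12 HCR smoke and, in LCR, 7 sham and 12 smoke. The authors deposited linear intensities per probe set; the sources used here do not name their summarising or normalization software. Depth does not apply to arrays, and the number of animals limits the precision. Intensities ran from 2.09 to 11558, and log2(intensity + 16) was computed from the intensities the authors deposited. Of 31099 probe sets, 57 controls were left out, 20826 had 1 gene symbol in the platform annotation, 436 had several and 9780 had none listed. The probe set with the highest mean over the 38 arrays stood for each of 14217 genes. Among 2327 called genes with more than 1 probe set, 211 had another probe set called in the opposite direction.

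Group means of the 4 groups were fitted over all 38 arrays with limma 3.58.1 in R 4.3.3 (lmFit, eBayes), with Benjamini-Hochberg adjustment over all genes and a threshold of 0.05. The spread is therefore shared with the LCR arrays. P-values rest on the spread between animals. The script was tested on simulated data. Array measures were compared by exact permutation tests with Benjamini-Hochberg adjustment over the 4 measures.

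The genes named are the 20 largest rises and falls past the threshold with all 12 smoke arrays on 1 side of the sham mean, the leading genes written for each of 47 lists, up to 4 members per list and direction by p, and the 10 genes called in HCR with the lowest p for the line difference; Cyp1a2, Cxcl11, Cxcl16 and Pf4 fall outside it. Of the 362 genes this gives, 287 are printed, with every one of the leading genes; 75 list members were left out after their values were seen. Members, lists and rules were chosen with earlier results of these data known. The alternatives were quantile normalization, median-centred arrays, the dimmest genes left out (25% of them, by mean level), all probe sets of a gene averaged, a pseudocount of 1, a fit to HCR arrays alone, variances moderated robustly along an intensity trend, weights per array, and 1 further term in the fit (array interquartile range, called spread-adjusted, or the 3' minus 5' difference of Actb or of Gapdh). Each of the 19 HCR arrays was also left out, as were the 4 smoke arrays with high heart muscle markers and, separately, HCR sham 0433, with high muscle and fat markers, together with HCR sham 0432, which had the highest Actb difference (2.06).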

Additional observations from a re-analysis of the deposited data

Results flagged for a closer look

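For 24 named genes 1 of the 7 sham arrays stood far from the other 6, by a gap set against the group's range (Dixon, 95%). Chance alone flags about 1 in 20 groups, and 26 of 295 genes and array measures did so, 8 of them on HCR sham 0432. On HCR sham 0432, Lipe was at 212 against 326 to 448, Muc5b was at 146 against 38.6 to 66.1 and Serping1 was at 1584 against 1886 to 2145. The same array gave Sftpa1 at 6343 against 7567 to 8282, Slc30a1 at 8.10 against 50.8 to 70.5, Soat1 at 187 against 276 to 358. On HCR sham 0433, Acta1 was at 5584 against 22.0 to 182, Ckm was at 3236 against 6.84 to 30.2 and Cyp1a1 was at 16.4 against 6.20 to 9.61. The same array gave Cyp2j4 at 143 against 62.1 to 90.0, Myh4 at 275 against 2.61 to 2.91, Myl11 at 1764 against 6.58 to 8.42. The same array gave Pgk1 at 1649.7 against 1235 to 1391. On HCR sham 0434, Akr1b8 was at 121 against 224 to 316, Cxcr2 was at 29.8 against 9.08 to 16.3 and Il1r2 was at 102 against 14.6 to 35.9. The same array gave Mmp9 at 54.1 against 7.19 to 17.8, Mt1 at 21.3 against 13.2 to 15.8, Mt2A at 175 against 90.5 to 121. The same array gave Saa3 at 88.6 against 18.2 to 34.1. On HCR sham 0436, Vegfa was at 1189 against 1446 to 1602. On HCR sham 0438, Mmp14 was at 328 against 502 to 627. On HCR sham 0439, Hp was at 132 against 201 to 274 and Mgst2 was at 1007 against 1170.4 to 1293. HCR sham 0432 also had the largest 3' minus 5' differences, 2.06 for Actb (0.626 to 0.829 on the others) and 1.2 for Gapdh (0.0312 to 0.298).

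The smoke change differed between the lines, by limma's interaction term over all genes, for 17 named genes. The difference, LCR change minus HCR change in log2, was Acp5 0.68 (adjusted p = 0.034), Ctss 0.44 (adjusted p = 0.041), Cxcl12 -0.72 (adjusted p = 0.045), Fasn 0.59 (adjusted p = 0.0022), Fetub 0.79 (adjusted p = 0.0092). It was Fkbp5 1.35 (adjusted p = 0.029), Mab21l3 0.80 (adjusted p = 0.0022), Mgst2 0.42 (adjusted p = 0.0024), Mrc1 0.62 (adjusted p = 0.036), Paqr4 0.60 (adjusted p = 0.0022). For the remaining genes it was Pfkfb1 0.70 (adjusted p = 0.0092), Pigr 0.25 (adjusted p = 0.017), Pik3c2b -0.81 (adjusted p = 0.0022), Pla1a 0.41 (adjusted p = 0.0092), Sec14l2 0.75 (adjusted p = 0.0039), Tgfa 0.53 (adjusted p = 0.0022), Ucp2 0.42 (adjusted p = 0.0092).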

How the results depend on the processing

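Over the 32 alternatives, 3023 to 7165 genes passed against 6830. In the spread-adjusted fit 3023 genes passed, 1412 higher and 1611 lower. Higher genes numbered 3806 with median-centred arrays and 1582 with the dimmest genes left out, where fewer genes were tested. Leaving out 1 array gave 6262 to 6985 calls, 2249 to 2579 higher and 4011 to 4424 lower. It gave 840 to 1064 genes whose groups did not overlap, against 834. That count cannot fall when an array is left out, so it is no check of the result. The line difference was the least steady count: against 266 it was 549 with median-centred arrays, 1537 with array weights, 629 with the Actb and 562 with the Gapdh covariate, 107 without HCR smoke 0410, 0414, 0415 and 0417, 686 without HCR sham 0432 and 0433, and 81 to 768 with 1 array left out; apart from the left-out arrays, the cause was not tested. Cyp1a2 turned to -0.011 in the spread-adjusted fit. That adjustment, for a measure which differs between the groups, ended more calls of named genes than any other single alternative, and the array number limits small changes of dim genes. No paired analysis was possible because the groups share no replicate numbers.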
